A study of Mus musculus with 18 samples.

Results

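Glycolysis, the splitting of glucose to pyruvate and lactate, and the response to low oxygen were followed through 36 genes. The genes were picked by symbol for their known function, at a time when earlier results of these data were known. They comprise 16 enzymes from hexokinase to lactate dehydrogenase, 2 bifunctional regulators of phosphofructokinase, 1 kinase of pyruvate dehydrogenase, 7 genes that build or degrade the hypoxia-inducible factors (HIFs), and 10 further HIF target genes. Of the 36, 35 had a row among the 13452 genes of the table of enteric glial cells (EGCs), and 34 among the 11200 genes of the table of bone-marrow-derived macrophages (BMDMs). Ankrd37 had no row in either table and Adm none in the BMDM table.

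EGCs are the glia of the enteric nervous system, here grown as primary cultures from the small bowel muscularis externa of mice of genotype Bl6, and given IL-1β at 10 ng/ml or a control treatment for 24 h (3 libraries per group). The BMDMs of all 3 groups came from Il1R1-KO mice, which lack the type 1 IL-1 receptor. They were kept for 3 h in RPMI, in conditioned medium of resting EGCs (CM-Veh), or in conditioned medium of EGCs treated with IL-1β for 24 h (CM-IL-1), with 4 libraries per group and 18 libraries in all. The labels give no age of the mice. The labels name RPMI for the first BMDM group, while the study's text calls these cells untreated, and its methods describe neurobasal medium with supplements for EGCs. A difference between conditioned medium and RPMI therefore holds both the products of the EGCs and the change of basal medium, and the 2 cannot be told apart here. 

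Each value below is the authors' least-squares mean of a group, scaled so that a column adds up to between 996052 and 997403. The tables hold 1 mean per group, so the depth of each library, the spread between libraries and the error of a mean are unknown. No test was therefore run, and every ratio is a description of 2 group means. Libraries counted from the 3′ end of a transcript give about 1 fragment per transcript, so no division by gene length was made here. The 2 tables were normalized separately, and levels are compared within a table only. A gene was counted as higher or lower past a fold of 1.5, among genes with a mean of at least 1 in either group, and all 35 and 34 members passed that minimum. The row AY036118 took 21.4% to 25.1% of each column.

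The labelled cell types were checked against marker genes. Among EGCs, 8 of 10 glial markers had a row, with summed means of 1561 in control cultures and 1324 with IL-1β. Markers of fibroblasts, which the study names among the other cells of these cultures, had a row for 8 of 8 and summed means of 17183 and 14530.3. The 8 neuronal markers summed to 585 and 404. The sums of these 3 lists were lower with IL-1β. Those of macrophage markers (131 and 156, 4 of 10 with a row) and smooth muscle markers (230.3 and 240.4, 6 of 6) were higher. Of the smooth muscle markers, Acta2 (149 and 160), Tagln (42.0 and 57.1) and Actg2 (7.09 and 10.9) were higher. Myh11 (12.3 and 3.67), Des (14.7 and 7.56) and Cnn1 (4.95 and 1.43) were lower. Lyz2 (113 and 137) made up most of the macrophage sum, Cd68 and C1qa were higher at low means, and Csf1r was at 13.5 and 13.3. The part of these cell types in the EGC results was not tested. In bulk RNA of this kind, fewer cells of a type and less RNA per cell cannot be told apart. In the BMDM table all 10 macrophage markers had a row, and their summed means were 20026.6 in RPMI, 19810.4 with CM-Veh and 17692 with CM-IL-1. Lyz2, at 16250, 16195 and 13984, made up most of these sums, whereas the median of the 10 means was 339, 353 and 363. Mrc1, C1qa, Itgam and Fcgr1 were higher with CM-IL-1 than in RPMI. Csf1r, Adgre1, Cd68, Ptprc and Aif1 were lower, as was Lyz2. None of the 10 glial markers had a row in the BMDM table.

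As background, glucose is trapped in the cell by hexokinase, committed to glycolysis by phosphofructokinase and split by aldolase, and the resulting triose phosphates are turned to pyruvate with a net yield of ATP. Lactate dehydrogenase reduces pyruvate to lactate, whereas pyruvate dehydrogenase kinase limits its conversion to acetyl-CoA in the mitochondria. HIF-1α and HIF-2α pair with ARNT and bind hypoxia response elements. With oxygen present, the prolyl hydroxylases of the Egln genes mark the α subunits for degradation through VHL. Macrophages activated by inflammatory stimuli are known for a shift to glycolysis, and most glycolytic enzymes are also HIF targets.

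The hypoxia response element has the core letters ACGTG or GCGTG. These letters were searched on both strands in RefSeq promoter windows of GRCm38.p6, which run from 250 bases before to 50 bases after a start site. The palindrome CACGTG, an E-box, holds ACGTG on each strand and was counted on both. Of 33 members with a window, 29 (87.9%) had a core in at least 1 window, beside 46.7% of all 27025 genes. By window it was 38 of 48 (79.2%), beside 43.8% of all 32851 windows. Many members were picked as known HIF targets, so a larger share than that of all genes is no independent evidence. The members also had more windows per gene than all genes, which raises the share by gene. Eno2, Gpi1, Tpi1 and Vhl had no core in their windows, and Epas1, Bnip3l and Ndrg1 had no window in the table. A match of letters is a description and does not show that a factor binds there.

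Stretches of 30 bases before a start site are shown for a choice of members that stands for each step, namely entry, phosphofructokinase, the ATP-making steps, lactate, an oxygen sensor, 2 HIF targets and the opposite pair of P4ha genes. The choice was made with their values known and leaves out other members with a core and a larger fold than Pgk1 or Pkm, such as Arnt, Adm, Hif1a and Pfkfb3. Each stretch is the one of its window with the most cores, and the cores are in capitals, on either strand. Those of the glycolytic enzymes are Hk2 at chr6:82774489-82774518 (minus strand), Pfkl at chr10:78009889-78009918 (minus), Pgk1 at chrX:106186947-106186976 (plus), Pkm at chr9:59657140-59657169 (plus) and Ldha at chr7:46845751-46845780 (plus). The others are Egln3 at chr12:54204086-54204115 (minus), Vegfa at chr17:46025361-46025390 (minus), Bnip3 at chr7:138909597-138909626 (minus), P4ha1 at chr10:59323158-59323187 (plus) and P4ha2 at chr11:54100838-54100867 (plus). Vegfa and Pkm each had 2 windows, of which 1 had no core. For Vegfa the window without a core is the one at the annotated 5′ end of the gene, and the stretch shown lies before a start site inside the gene. The Pkm window without a core likewise spans the annotated 5′ end of Pkm. The stretches shown for Pfkl, Pkm, Ldha and P4ha2 also lie inside the annotated extent of their genes.
Hk2: aatgagcacatcCACGTcactgtccggggc
Pfkl: atttgtagactgGCGTGcgctccgcctttc
Pgk1: aggACGTGacaaatggaagtagCACGTctc
Pkm: ctccgatccggtCACGTccgcgccgcagca
Ldha: gcctaCACGTGggttcccgCACGTccgctg
Egln3: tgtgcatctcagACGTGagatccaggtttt
Vegfa: ccctggagtGCGTGccCACGTcagagagca
Bnip3: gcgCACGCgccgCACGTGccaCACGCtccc
P4ha1: cactgcgtcctcGCGTGggccagcctaggc
P4ha2: catcgcatACGTGcagcGCGTGgcggctcg

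With IL-1β, the mean levels of most glycolytic enzymes in EGCs lay within a fold of 1.5 of the control, while members of the HIF system differed in both directions. Of 35 members, 3 had a higher mean with IL-1β (8.57%) and 7 a lower one (20%). Among all 13445 genes kept, 4.25% were higher and 21.2% were lower past the same fold, so the lower share of the members lay near that of all genes. The median log2 ratio was −0.02 over the members and −0.14 over all genes. The higher members were Adm, P4ha2 and Egln3, and the lower ones Arnt, Bnip3, Vegfa, Aldoc, P4ha1, Egln1 and Pfkfb4. With the median of all genes set to 0, 4 members were higher and 5 lower, since Pfkfb4 and Egln1 no longer passed the fold and Egln2 did, and over all genes the split moved from 571 higher and 2855 lower to 936 and 2236.

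At the entry of glycolysis in EGCs, Hk1, the widely expressed hexokinase, had means of 69.0 in control cultures and 73.3 with IL-1β. Hk2, the inducible hexokinase, had means of 50.1 and 56.2, and Gpi1, the glucose phosphate isomerase, 268 and 288. These 3 members differed by at most 1.12-fold. The phosphofructokinase genes Pfkl (68.9 and 66.7), Pfkm (15.3 and 12.3) and Pfkp (83.2 and 77.6) were slightly lower with IL-1β, none past the fold. Pfkfb3, which makes the activator of phosphofructokinase, had the means 18.8 and 18.9. Its relative Pfkfb4 was at 11.8 and 7.54, a 1.57-fold lower mean with IL-1β.

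Further down the pathway in EGCs, Aldoa, the main aldolase, had means of 586 and 549, and Tpi1, the triose phosphate isomerase, 258 and 255. Aldoc, the aldolase best known from brain, was at 22.3 and 12.9, 1.73-fold lower with IL-1β and the enzyme with the largest fold of the 16. Gapdh (154 and 171), Pgk1 (439.8 and 464), Pgam1 (666 and 733) and Pkm (476 and 527), which take triose phosphate to pyruvate, were 1.06-fold to 1.11-fold higher. Ldha, lactate dehydrogenase A, had means of 527 and 505, and Pdk1, the kinase that switches off pyruvate dehydrogenase, 34.2 and 27.0. The neuronal enolase gene Eno2 was at 22.7 and 16.4. The sum of the 16 enzymes was 3791 in control EGCs and 3869 with IL-1β, a ratio of 1.02, with 7 enzymes above and 9 below a log2 ratio of 0. The median log2 ratio of these enzymes was −0.03, beside −0.14 over all genes.

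Some of these rows share sequence with other rows. For Gapdh, Pfkp, Eno1 and Bnip3, the last 400 bases of the transcript matched another annotated transcript by at least 95% over at least 100 bases, so their values are uncertain. The search took only the longest protein-coding transcript of each member and left out matches under the same symbol. The annotation holds a further gene entry under the symbol Aldoa, which this search could not flag. Eno1, α-enolase, had a mean of 84.4 in control EGCs and 61.6 with IL-1β, while its near copy Eno1b had 389.5 and 399. With both rows added, the enolase sum was 474 and 461, and the log2 ratio moved from −0.45 to −0.04. Gapdh matched 106 other genes, of which 4 had a row in the EGC table, with means from 1.31 to 4.28.

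The HIF subunits and their regulators in EGCs did not move as one. Hif1a, which encodes HIF-1α, had means of 178 in control EGCs and 228 with IL-1β, 1.28-fold higher. Epas1, which encodes HIF-2α, had 56.7 and 77.0, 1.36-fold higher. Arnt, the partner of both, was at 28.5 and 10.5, a 2.71-fold lower mean and the member with the largest fold in EGCs, at rank 637 of 13445 genes from the largest decrease. Vhl, whose product binds hydroxylated α subunits, was at 28.5 and 33.0. So the genes of both α subunits were higher, within a fold of 1.5, and that of the shared partner was lower.

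The 3 prolyl hydroxylase genes that act on HIF-α differed from each other in EGCs. Egln1, known as the main oxygen sensor, was at 87.6 in control cultures and 54.9 with IL-1β, 1.60-fold lower. Egln2 was at 27.2 and 38.4, 1.41-fold higher, and Egln3, itself a HIF target, at 13.9 and 21.8, 1.56-fold higher. Egln1 accordingly made up 68.0% of the summed means of the 3 genes without and 47.7% with IL-1β, while the sum was 129 and 115.

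Among HIF targets outside glycolysis in EGCs, Adm, which encodes the vasodilator peptide adrenomedullin, had means of 101.0 in control cultures and 193 with IL-1β. That was 1.91-fold higher, the largest increase of the members, at rank 157 of 13445 genes. Vegfa, the growth factor of blood vessels, went the other way with 78.9 and 39.6, 1.99-fold lower. Its decrease ranked 1352 of 13445, inside the broad lower tail of all genes.

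The subunit genes of collagen prolyl 4-hydroxylase changed places in EGCs. P4ha1 had means of 239.4 in control cultures and 139.6 with IL-1β, and P4ha2 139.8 and 236. P4ha1 was thus 1.72-fold lower and P4ha2 1.69-fold higher, and the ratio of P4ha1 to P4ha2 went from 1.71 to 0.591 while their sum was 379 and 376. P4ha2 ranked 302 of 13445 genes by its increase. The decrease of P4ha1 ranked 2001, inside the broad lower tail of all genes. Both enzymes serve collagen synthesis, and the fibroblast markers in the same cultures summed to 17183 and 14530.3. Of these 8 markers 5 had a lower mean with IL-1β, among them Dcn at 6593 and 5298, and 3 a higher one (Col1a1, Lum and Fbln1), with Col1a1 at 3185 and 3308. Their part in the values of P4ha1 and P4ha2 was not tested.

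The remaining targets in EGCs were mostly within the fold. Bnip3l, a mitophagy receptor, had means of 259 and 198, Ndrg1, a stress-responsive gene, 152 and 130.3, Higd1a, a mitochondrial inner membrane protein gene, 215 and 214, and Ero1l, an oxidase that forms disulphide bonds in the endoplasmic reticulum, 153 and 177. Bnip3, the other mitophagy receptor, was 2.28-fold lower, at 18.2 in control cultures and 7.99 with IL-1β. Its near-identical or overlapping rows had larger means of 141 and 103 (Gm45507, annotated as antisense) and 44.2 and 67.8 (AC160336.1). With both added, the Bnip3 sum was 204 in control EGCs and 179 with IL-1β, and the log2 ratio moved from −1.19 to −0.19, within the fold. The rows Gm45507 and AC160336.1 went in opposite directions with IL-1β, so the sum depends on which of them is added. Whether reads were counted by strand is not stated.

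**Figure D1:**
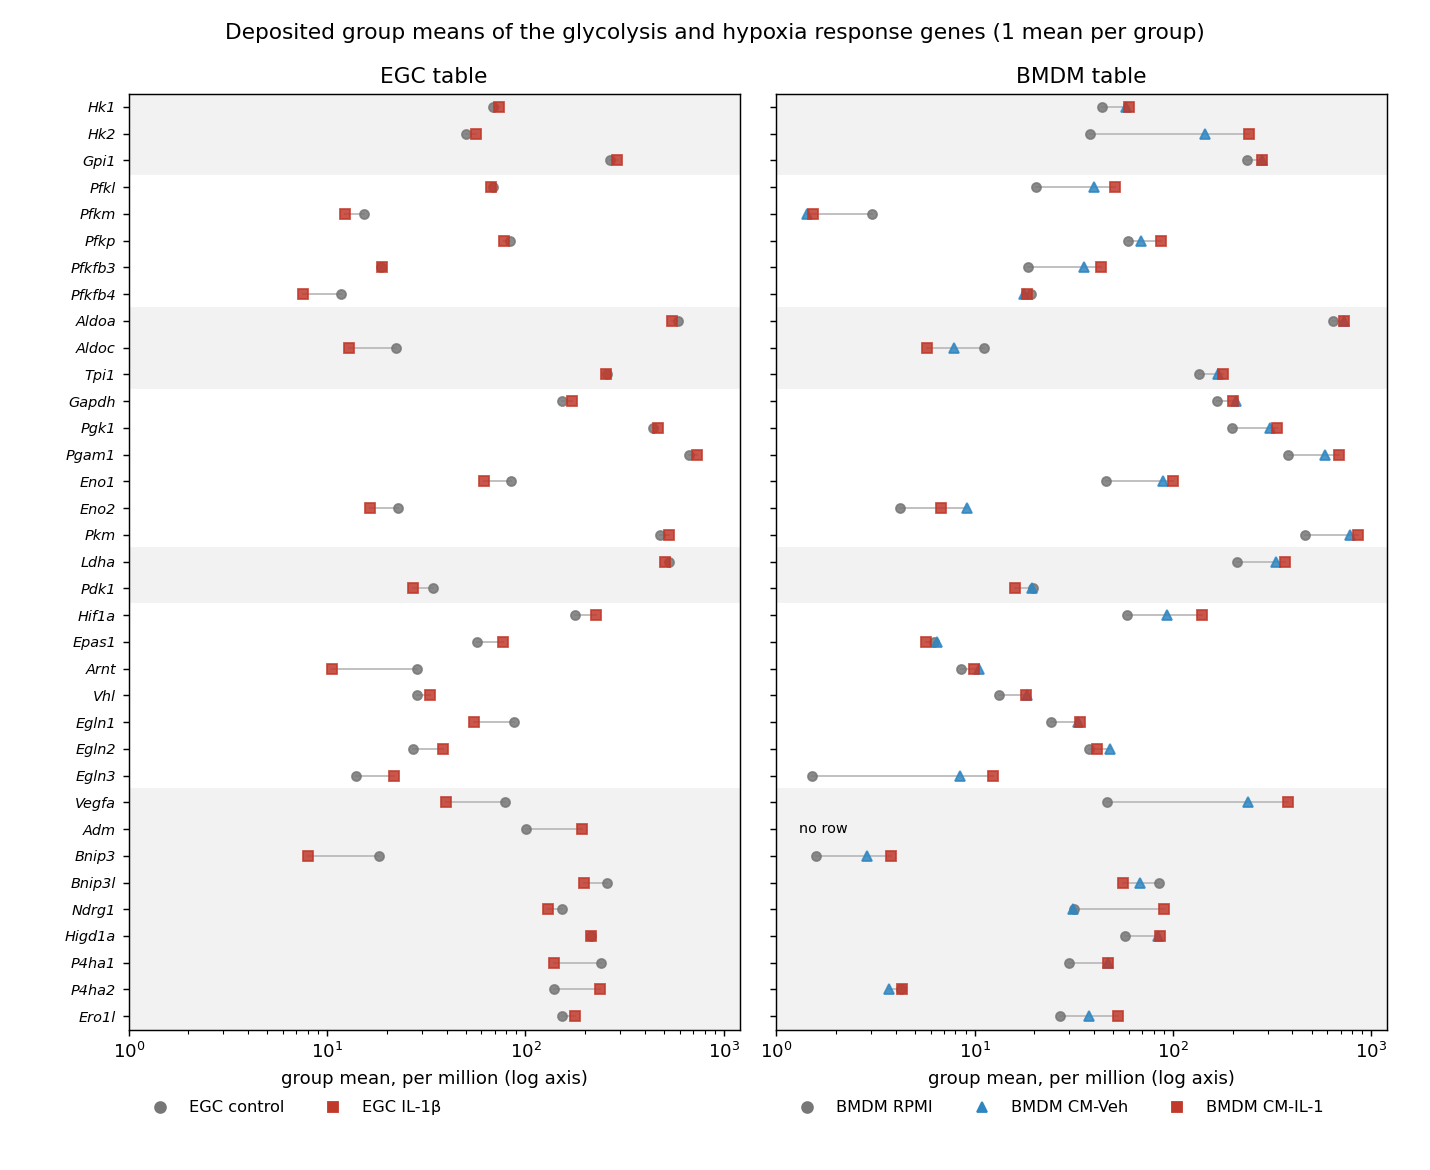
Authors' group mean of each member with a row, in the scaled unit of the tables on a log axis, for the 2 EGC groups (left) and the 3 BMDM groups (right), in pathway order, with 1 point per group and no error bars, since the tables give 1 mean per group. Hk2, Egln3 and Vegfa spread widest among the BMDM groups, and P4ha1 and P4ha2 change places between the EGC groups.

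In BMDMs, conditioned medium of resting EGCs already went with higher means of glycolytic and hypoxia response genes. Of 34 members, 14 were higher with CM-Veh than in RPMI (41.2%) and 1, Pfkm, was lower (2.94%), beside 8.0% higher and 10.8% lower of all 11200 genes. The median log2 ratio was 0.46 over the members and −0.03 over all genes, and 29 of 34 members lay above the median of all genes. With CM-IL-1 against RPMI, 17 members were higher (50%) and 3 were lower (8.82%), beside 8.46% higher and 22.4% lower of 11197 genes. There the medians were 0.56 and −0.19. With the median of all genes set to 0, 22 members were higher and 2 lower, since Hk1, Pfkp, Tpi1, Vhl and Egln1 then passed the fold and Bnip3l did not, and over all genes the split moved from 947 higher and 2508 lower to 1440 and 1618.

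Between the 2 conditioned media, 4 of 34 members were higher with CM-IL-1 than with CM-Veh (11.8%), namely Ndrg1, Hk2, Vegfa and Hif1a. None was lower. Of 11184 genes, 2.72% were higher and 8.33% were lower past the fold. The median log2 ratio was 0.10 over the members and −0.14 over all genes. After setting the median of all genes to 0, Egln3 and Ero1l passed the fold as well, and over all genes the split moved from 304 higher and 932 lower to 506 and 538. The 3 comparisons share group means, so the third follows from the other 2 and is no separate evidence. By the order of the 3 means, 19 of 34 members went up from RPMI over CM-Veh to CM-IL-1, as did 14.2% of all 11200 genes, and 3 members (Aldoc, Pdk1 and Bnip3l) went down in that order, as did 40.6% of all genes. This order has no fold limit and counts a difference of any size. P4ha1, for example, counts as going up with 46.9 in CM-Veh and 47.1 in CM-IL-1.

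**Figure D2:**
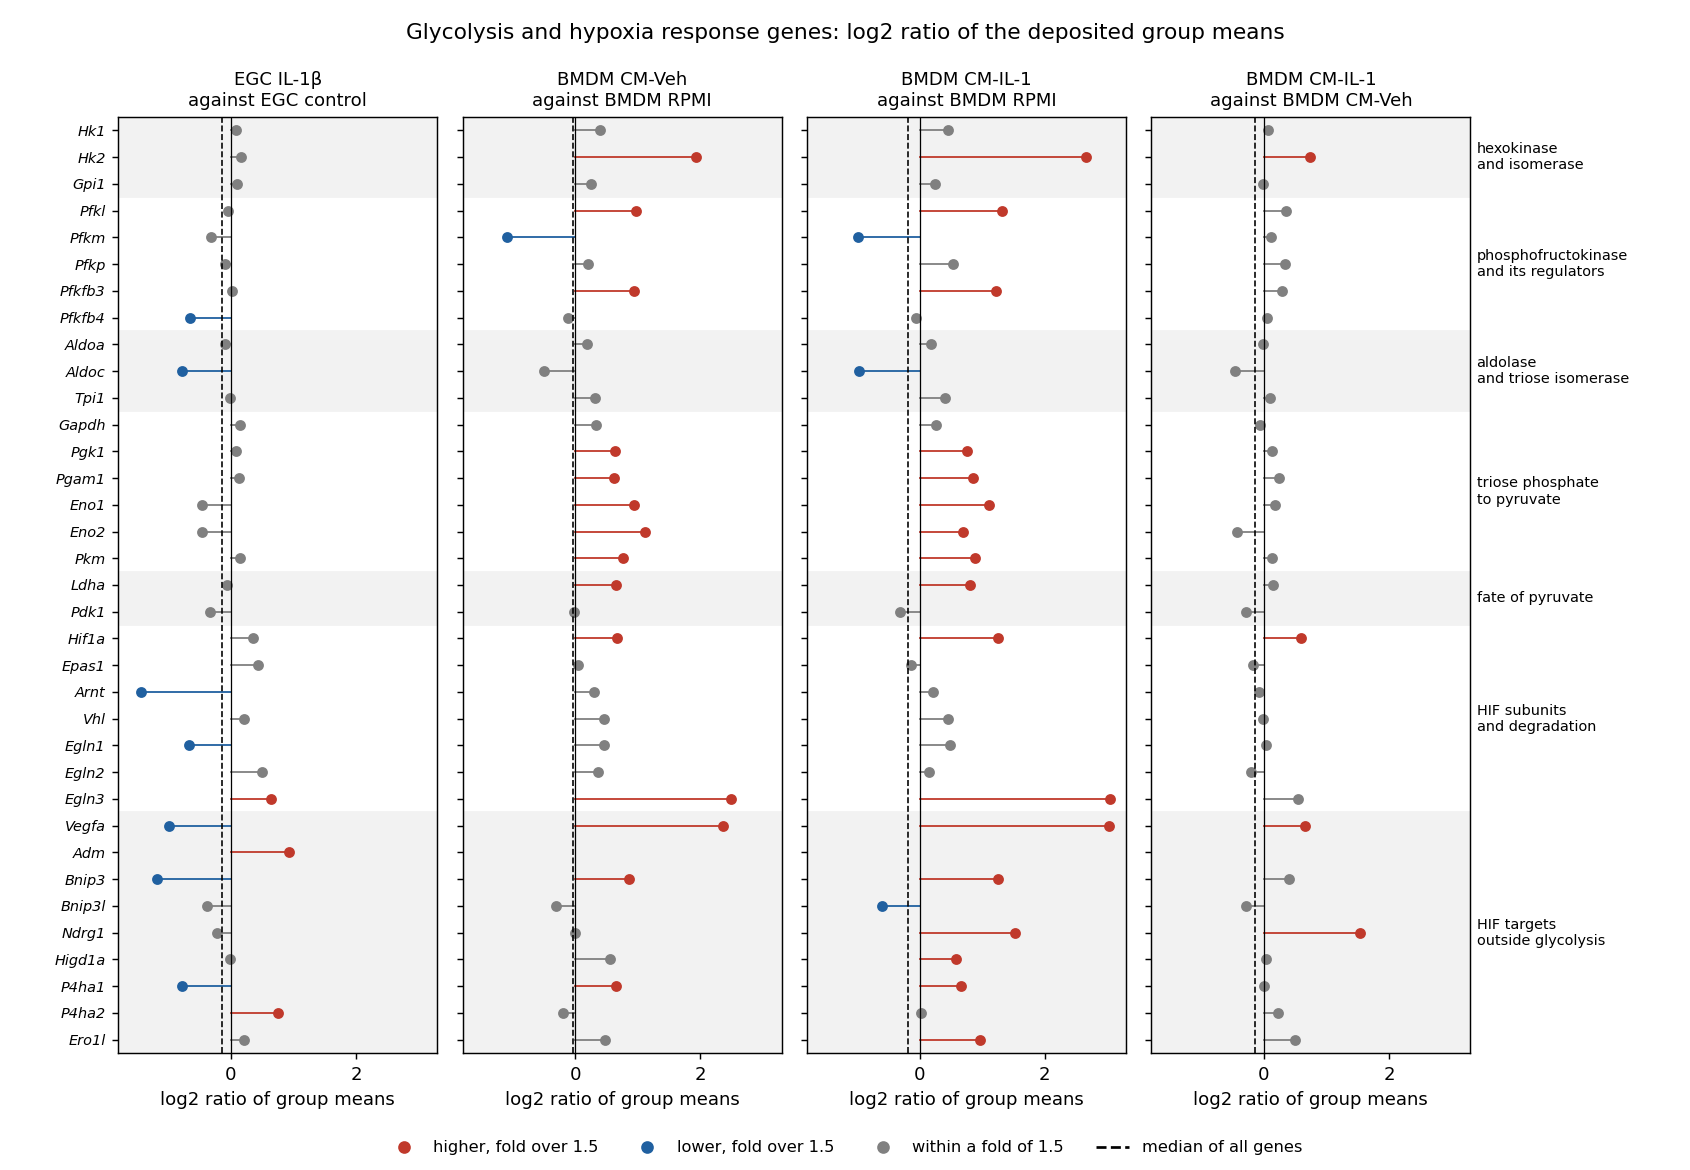
Log2 ratio of the 2 group means of each member in pathway order, for the 4 comparisons, coloured by whether the ratio passes a fold of 1.5, with the median of all genes as a dashed line. In EGCs 3 members are higher and 7 lower, in BMDMs 14 and 17 members are higher with CM-Veh and CM-IL-1 against RPMI, and 4 are higher between the conditioned media.

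Hk2, on chromosome 6 from 82725025 to 82774454 (mm10), had by far the largest fold of the glycolytic enzymes in BMDMs. Its means were 38.0 in RPMI, 144.7 with CM-Veh and 241.6 with CM-IL-1. Against RPMI this was 3.80-fold higher with CM-Veh, at rank 80 of 11200 genes, and 6.35-fold higher with CM-IL-1, at rank 68 of 11197. CM-IL-1 exceeded CM-Veh by 1.67-fold. Hk1 had means of 43.9, 57.9 and 60.3, up to 1.37-fold apart, so the share of Hk2 in the summed means of Hk1 and Hk2 was 46.4% in RPMI, 71.4% with CM-Veh and 80.0% with CM-IL-1. In EGCs that share was 42.1% without and 43.4% with IL-1β. Hk3, a hexokinase of blood cells that is not among the 36 genes, is left out of this sum and was at 15.92, 16.02 and 17.1 in the BMDM groups. Gpi1, the next enzyme, was at 237, 282 and 279 in the 3 BMDM groups.

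At the phosphofructokinase step in BMDMs, the liver-type gene Pfkl was at 20.4 in RPMI, 40.0 with CM-Veh and 50.8 with CM-IL-1, 1.96-fold and 2.49-fold above RPMI. Pfkp, the platelet type, was at 59.5, 68.7 and 86.6, within the fold. Its 3′ end shares sequence with the transcript of Pitrm1, and with that row added the means were 72.0, 78.5 and 95.4. Pfkm, the muscle type, was lower in both conditioned media, at 3.03, 1.42 and 1.54, values close to the minimum of 1. Pfkfb3, the regulator that raises phosphofructokinase activity, was at 18.6, 35.4 and 43.2, 1.91-fold and 2.33-fold above RPMI. Pfkfb4 was at 19.1, 17.7 and 18.3. The 2 regulators of this step thus differed in their response.

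The aldolase and triose isomerase genes changed less in BMDMs. Aldoa had means of 639.8 in RPMI, 731 with CM-Veh and 726 with CM-IL-1, and Tpi1 136, 168 and 179. Aldoc, a minor aldolase here, was at 11.2, 7.91 and 5.73, and 1.95-fold lower with CM-IL-1 than in RPMI. None of the 3 was higher past the fold in a BMDM comparison, except Tpi1 with CM-IL-1 against RPMI once the median of all genes was set to 0.

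From triose phosphate to pyruvate, 5 of 6 members were higher in BMDMs with either conditioned medium than in RPMI, all but Gapdh. Pgk1, which makes the first ATP of the pathway, had means of 199 in RPMI, 308 with CM-Veh and 336 with CM-IL-1, 1.55-fold and 1.69-fold above RPMI. Pgam1, the phosphoglycerate mutase, was at 382, 586 and 689. Pkm, the pyruvate kinase of most tissues, was at 460.1, 782 and 853, 1.70-fold and 1.85-fold above RPMI. Eno2 was at 4.19, 9.13 and 6.79, under a mean of 10 in each group. Gapdh, often used as a reference gene, was at 166, 208 and 199.8, 1.25-fold and 1.20-fold above RPMI. Its single near copy with a row, Gm3839, had means from 3.49 to 4.76.

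The BMDM value of Eno1 rests on how its copy is counted. Alone, Eno1 had means of 46.2 in RPMI, 88.9 with CM-Veh and 99.9 with CM-IL-1, and Eno1b 168, 229 and 237. Added together they were 214, 318 and 337, which is 1.48-fold higher with CM-Veh, under the fold, and 1.57-fold higher with CM-IL-1 than in RPMI.

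At the end of the pathway, Ldha was at 209.8 in RPMI, 329.8 with CM-Veh and 366 with CM-IL-1, 1.57-fold and 1.74-fold above RPMI. Pdk1, a HIF target whose product inhibits pyruvate dehydrogenase, was at 19.80, 19.44 and 16.01 and passed the fold in no comparison. The sum of all 16 enzymes was 2655 in RPMI, 3814 with CM-Veh and 4182 with CM-IL-1. These sums stood in ratios of 1.44 and 1.58 to RPMI and of 1.10 to each other. Without the row AY036118, which took 23.5%, 21.4% and 23.9% of the 3 columns, the ratios were 1.40, 1.58 and 1.13.

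Hif1a was the HIF subunit gene that differed between the BMDM groups. Its means were 58.9 in RPMI, 93.1 with CM-Veh and 140.3 with CM-IL-1, 1.58-fold and 2.38-fold above RPMI, and 1.51-fold higher with CM-IL-1 than with CM-Veh, just past the fold. Epas1 was low throughout, at 6.24, 6.45 and 5.70. Arnt was at 8.55, 10.5 and 9.93, and Vhl at 13.3, 18.4 and 18.2, both within the fold. In BMDMs the α subunit gene thus differed without its partner.

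Egln3 had the largest fold of all members in BMDMs against RPMI by the group means as they stand, close to Vegfa at 5.15-fold and 8.16-fold. Its means were 1.51 in RPMI, 8.47 with CM-Veh and 12.4 with CM-IL-1, 5.62-fold and 8.21-fold higher at ranks 37 of 11200 and 50 of 11197 genes. The fold rests on a low mean in RPMI. The log2 ratios of Egln3 were 2.49 and 3.04, and both also passed the fold on the scale of log2(mean + 1), which shrinks ratios of low means. On that scale the ratios of Vegfa were larger than those of Egln3. Egln1 was at 24.2, 33.2 and 34.1, and Egln2 at 37.6, 48.1 and 41.5, within the fold. The share of Egln3 in the summed means of the 3 genes was 2.38%, 9.43% and 14.1%.

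Vegfa, on chromosome 17 from 46016993 to 46032369 (mm10), combined a large fold with a high mean in BMDMs. It was at 46.5 in RPMI, 239.8 with CM-Veh and 379.8 with CM-IL-1. Against RPMI this was 5.15-fold and 8.16-fold higher, at ranks 44 and 51, and CM-IL-1 exceeded CM-Veh by 1.58-fold. The EGC mean of Vegfa had been lower with IL-1β, and the difference between the cell types was not tested.

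Ndrg1 was the member that differed most between the 2 conditioned media. It was at 31.5 in RPMI, 31.4 with CM-Veh and 90.5 with CM-IL-1, a 2.88-fold higher mean than with CM-Veh at rank 20 of 11184 genes. CM-Veh and RPMI differed by a log2 ratio of −0.01. Hk2, Vegfa and Hif1a, the other 3 members past the fold between the media, were already higher with CM-Veh than in RPMI.

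Other HIF targets in BMDMs went up by smaller folds. Ero1l was at 27.1 in RPMI, 37.8 with CM-Veh and 53.1 with CM-IL-1, P4ha1 at 29.8, 46.9 and 47.1, and Higd1a at 57.1, 83.7 and 85.8. With CM-IL-1 these were 1.96-fold, 1.58-fold and 1.502-fold above RPMI. P4ha2 was at 4.26, 3.70 and 4.32. Bnip3l was the one target that was lower, at 84.6, 68.1 and 56.0, 1.51-fold lower with CM-IL-1 than in RPMI, but within the fold after setting the median of all genes to 0. Bnip3 was at 1.58, 2.87 and 3.78, and with its near-identical or overlapping rows added at 25.2, 37.3 and 52.6, which is 1.48-fold and 2.09-fold above RPMI. Most of these sums was the antisense row Gm45507, at 19.1, 28.1 and 43.0.

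**Figure D3:**
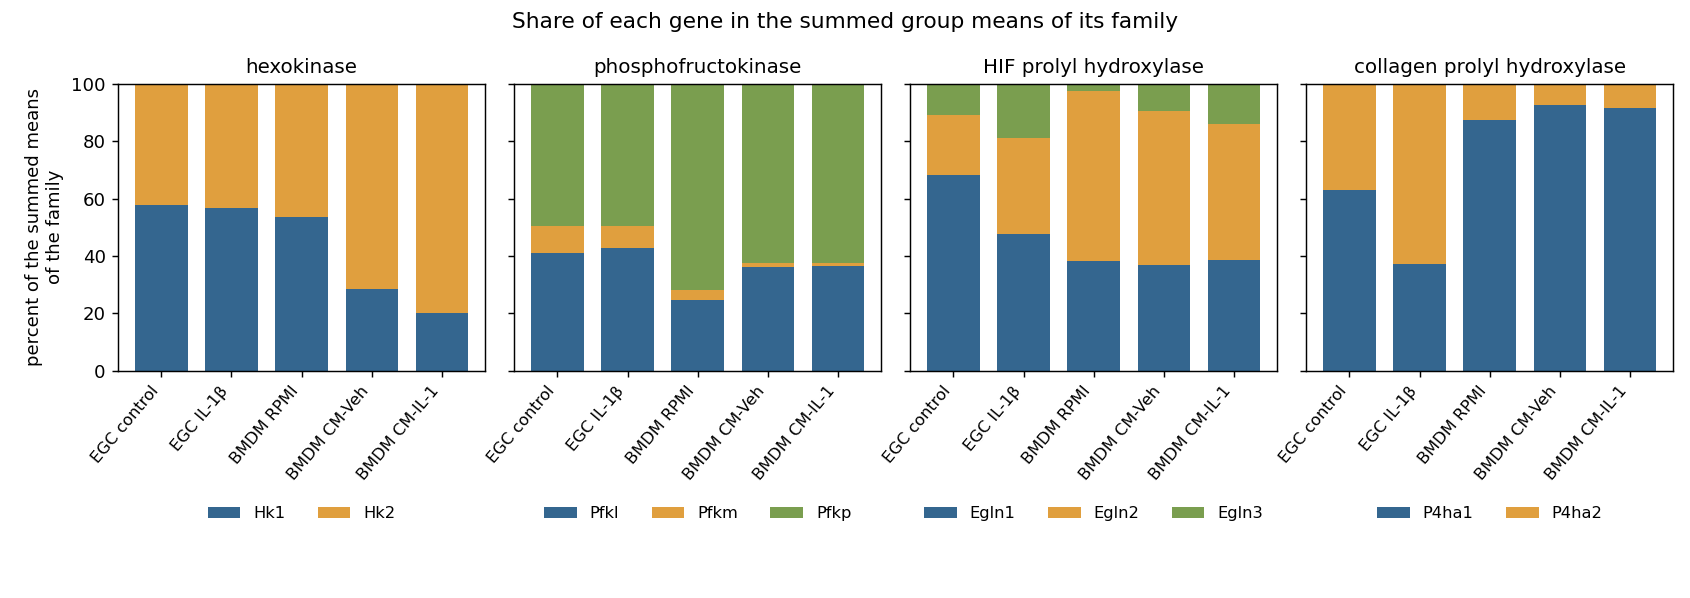
Percent of the summed group means taken by each member of 4 families in the 5 groups, as stacked bars that start at 0; the hexokinase bar holds Hk1 and Hk2 only. The Hk2 share of these is 46.4%, 71.4% and 80.0% in BMDMs, and the P4ha1 share is 63.1% and 37.2% in EGCs.

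Genes that carry glucose and lactate across membranes were looked up as the next neighbours of the pathway. The counts of this list and of those that follow are small, and are to be read beside the shares of all genes past the fold. These were 4.25% higher and 21.2% lower in EGCs, 8.0% and 10.8% with CM-Veh against RPMI, 8.46% and 22.4% with CM-IL-1 against RPMI, and 2.72% and 8.33% between the conditioned media. Of 8 with a row in BMDMs, 2 were higher and 2 lower with CM-Veh against RPMI, 3 and 2 with CM-IL-1 against RPMI, and 2 and 0 between the conditioned media. The glucose transporter gene Slc2a1 had means of 27.9 in RPMI, 105.1 with CM-Veh and 176.8 with CM-IL-1. The lactate exporter gene Slc16a3 was at 30.2, 95.4 and 148. Slc16a1, another lactate carrier gene, was at 12.1 in RPMI and 22.3 with CM-IL-1. The lower ones, Slc2a6 and Slc16a7, had means under 10. In EGCs, 1 of 8 was higher, Slc2a6 from 2.73 to 7.33, and 1 lower, Slc2a3 from 10.8 to 6.92, while Slc2a1 was at 51.9 and 46.9.

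Routes that branch off glycolysis were counted in the same way. Of 8 genes of the pentose phosphate pathway, 1 was higher and 1 lower in EGCs with IL-1β, namely Pgd, which makes NADPH, from 82.1 to 145.4, and the epimerase gene Rpe from 16.2 to 9.45. In BMDMs 0 were higher and 1 was lower in each comparison, H6pd, at 16.4 in RPMI, 10.6 with CM-Veh and 6.55 with CM-IL-1. Of 9 genes of pyruvate dehydrogenase and its kinases and phosphatases, 0 were higher and 1 lower in EGCs, and 0 and 2 in BMDMs with either medium against RPMI. The EGC gene was Dlat, from 29.9 to 18.9, and the BMDM ones were the phosphatase gene Pdp1, at 11.6, 5.98 and 2.43, and the kinase gene Pdk2, which was under 10. Between the conditioned media 1 was lower, Pdp1 again.

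Of 12 genes of glycogen metabolism in EGCs, 0 were higher and 4 lower, among them Ugp2, which makes UDP-glucose, from 90.3 to 59.6 and Ppp1r3c, a glycogen-targeting phosphatase subunit, from 11.96 to 3.97. In BMDMs 1 of 10 was higher and 1 lower with CM-Veh against RPMI, 2 and 2 with CM-IL-1 against RPMI, and 2 and 0 between the media. Ppp1r3b, another such subunit, was at 6.59 in RPMI, 26.5 with CM-Veh and 62.2 with CM-IL-1. Gys1, glycogen synthase, was at 10.8, 15.9 and 25.4, while Gyg, the primer protein glycogenin, was at 81.0, 45.0 and 34.3. The phosphorylase gene Pygb was at 30.4 in RPMI and 16.9 with CM-IL-1.

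Of other isoenzymes and glycolytic regulators, 0 were higher and 1 of 6 lower in EGCs, the ADP-dependent glucokinase gene Adpgk from 14.6 to 5.42. Of 7 in BMDMs, 1 was higher with CM-Veh against RPMI, Tigar, which encodes a fructose bisphosphatase, from 6.25 to 10.7. With CM-IL-1 against RPMI 1 was higher and 3 were lower, all with means under 10, and between the media 1 was lower. Of 14 other regulators of the HIF pathway in EGCs, 0 were higher and 6 lower, among them Cited2, which competes with HIF for coactivators, from 49.2 to 23.3, and Cul2 and Eloc, 2 partners of VHL in its ubiquitin ligase, from 17.9 to 7.90 and from 54.6 to 31.2. The ubiquitin ligase gene Siah1a went from 12.6 to 5.18. Of 12 in BMDMs, 0 were higher and 2 lower with CM-Veh against RPMI, 1 and 2 with CM-IL-1 against RPMI, and 0 and 0 between the media. Cited2 was at 40.8 in RPMI, 14.8 with CM-Veh and 10.7 with CM-IL-1.

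A wider list of HIF targets also holds Slc2a1 and Slc16a3. In EGCs 2 of 36 were higher and 7 lower with IL-1β, shares near those of all genes. In BMDMs 13 of 34 were higher and 4 lower with CM-Veh against RPMI, 15 and 6 with CM-IL-1 against RPMI, and 11 and 4 between the media. The lower share with CM-Veh was again near the 10.8% of all genes. The medians of the log2 ratios were −0.21 in EGCs and 0.28, 0.28 and 0.12 in these BMDM comparisons. In EGCs this median lay below that of all genes, −0.14, whereas the median of the 35 members, −0.02, lay above it.

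Among these targets in EGCs, Angptl4, an inhibitor of lipoprotein lipase, was at 38.8 in control cultures and 112.6 with IL-1β, and Hmox1, heme oxygenase 1, at 78.4 and 222. The repressor gene Bhlhe40 was at 54.5 and 20.6. Mxi1, a MAX partner, was at 27.5 and 14.9, and the histone demethylase gene Kdm3a at 15.0 and 7.81.

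In BMDMs, Arg1, which encodes the arginine-degrading enzyme arginase 1, had means of 6.45 in RPMI, 92.1 with CM-Veh and 333 with CM-IL-1, and Ier3, an early response gene, 53.7, 308 and 686. Hilpda, a lipid droplet protein gene, was at 79.1 in RPMI, 440.3 with CM-Veh and 738 with CM-IL-1. Pgf, a relative of Vegfa, was at 0.652, 1.91 and 11.8. Several targets went the other way. The chemokine receptor gene Cxcr4 was at 24.8, 9.01 and 4.83, the nuclear receptor gene Rora at 25.0, 11.7 and 12.9, and the transferrin receptor gene Tfrc at 80.4 in RPMI and 50.7 with CM-IL-1. Selenbp1, a selenium-binding protein gene, was at 12.99 in RPMI and 7.52 with CM-Veh. Hmox1 was at 143.5 in RPMI, 275 with CM-Veh and 154.7 with CM-IL-1, so it was higher with CM-Veh than in either other group. Angptl4 was at 12.96, 10.3 and 6.34, and Gpr146, a G protein-coupled receptor gene, at 33.7 with CM-Veh and 68.1 with CM-IL-1.

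**Figure D4:**
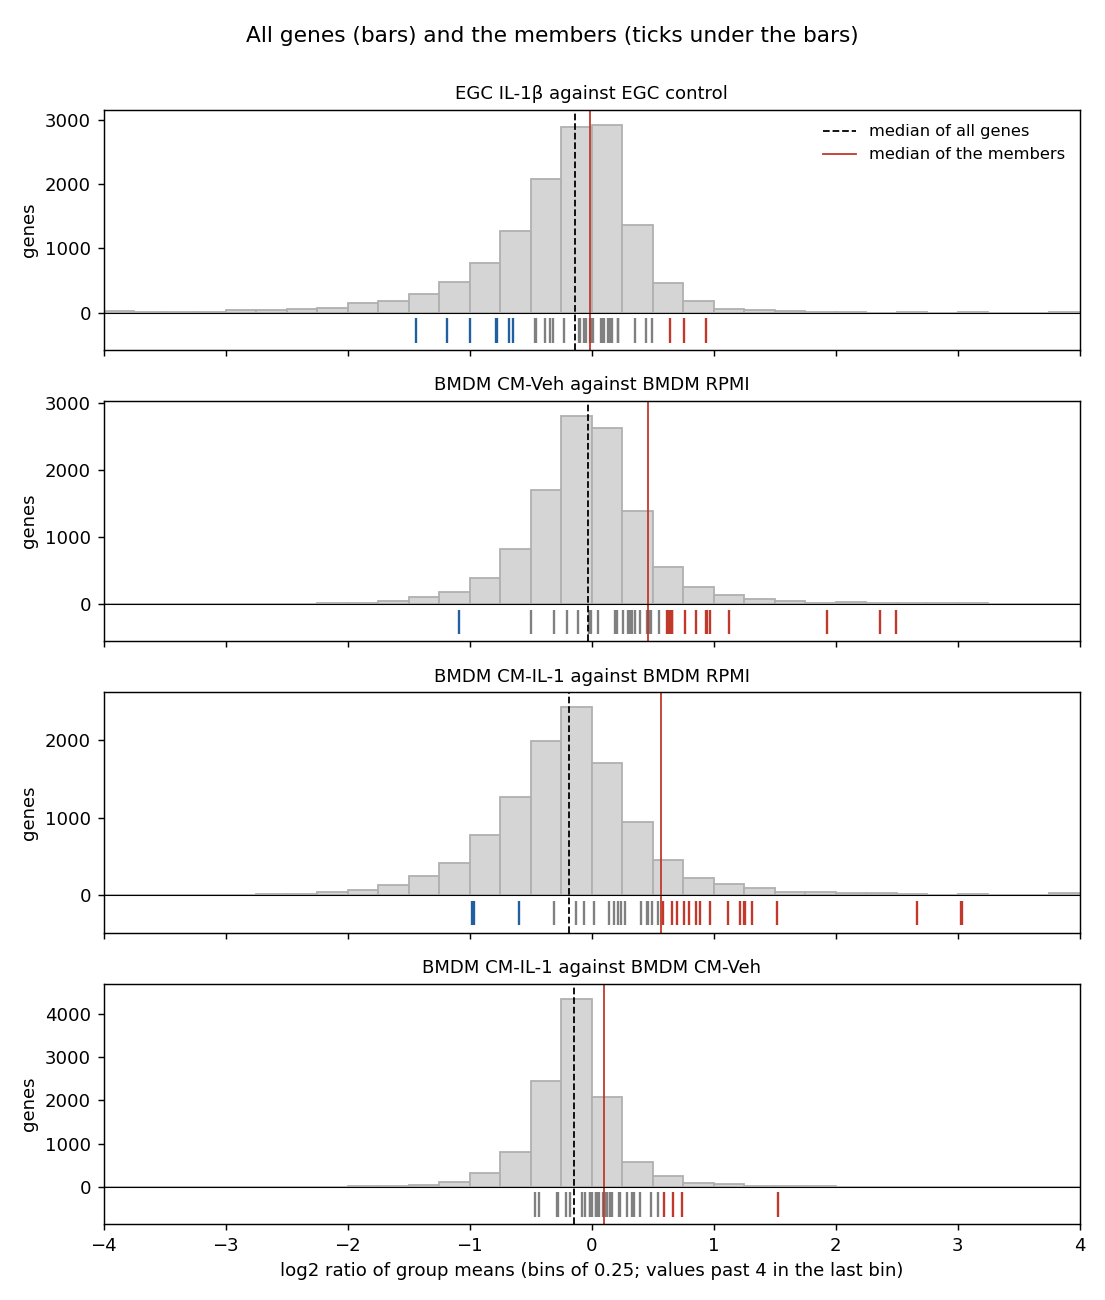
Number of genes per bin of the log2 ratio of group means in the 4 comparisons (bars), with the members as ticks under the bars and the 2 medians as lines. The member median lies at −0.02 in EGCs and at 0.46, 0.56 and 0.10 in the BMDM comparisons, beside medians of all genes of −0.14, −0.03, −0.19 and −0.14.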

How the data were processed

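Total RNA of primary EGC cultures and BMDMs was sequenced as 18 libraries, which per the study's methods were stranded 3′ mRNA libraries read from one end. The submitters' processing notes name cutadapt, STAR and Partek and the build mm10, without versions. The authors deposited 2 tables of signal values, each a least-squares mean per group that was scaled to a common column total. Of the columns, 3 repeat a mean, 0 hold values per sample, and 16 hold the authors' own p-values, adjusted p-values, ratios and folds, which were not used. The name of that scaling was not found in any source used. Some genes whose annotated lengths differ more than 2-fold share the same mean to the last digit (6 such sets in control EGCs and 27 with IL-1β), so no division by length is visible in the EGC table. The BMDM table had 0 such sets and does not show it either way.

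Samples were grouped by their labels. Ratios of group means were computed in Python 3.11.15 with pandas 2.3.3 and numpy 2.4.6, over genes with a mean of at least 1 in either group, and counted past a fold of 1.5, the fold limit in the study's methods. No test was made because no library values were used. The 36 members, their pathway steps and the further gene lists were chosen with earlier results of these data known. All members are named, and of the further lists up to 4 genes per direction with a mean of at least 10. Some items are withheld and are not reported here. Others named beside a count of 5 or fewer (Slc2a6, Slc16a7 and Pdk2) were chosen after their values were seen. Alternatives were a fold of 2, no minimum, a minimum of 10, log2(mean + 1), setting the median of all genes to 0, leaving out the most abundant row, and, chosen after the data were seen, adding near-identical rows, found with blastn 2.17.0 in GENCODE vM21. Gene positions are from the same annotation. The counting step was tested on simulated means. The figures were drawn with matplotlib 3.10.9.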

Additional observations from a re-analysis of the deposited data

How the results depend on the processing

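The direction of no member that passed the fold of 1.5 changed under the 6 alternatives chosen at the outset. None of them could have reversed it, so this is no evidence of stability. A fold limit or a minimum leaves a ratio as it is, and log2(mean + 1) keeps its sign. Setting the median to 0 or leaving out a row shifts all ratios of a comparison alike, by less than the fold of 1.5. Of 804 member values, 756 stayed on their side of the fold, 48 crossed it and 0 were reversed. Most crossings came from the stricter limit by construction. At a fold of 2, 0 members were higher and 2 lower in EGCs with IL-1β, 4 were higher with CM-Veh against RPMI, 9 higher and 0 lower with CM-IL-1 against RPMI, and 1 higher between the conditioned media. With a minimum mean of 10, 0 members were lower with CM-Veh against RPMI, because Pfkm was left out, and 11 in place of 14 were higher, because Eno2, Egln3 and Bnip3 were left out. On the scale of log2(mean + 1), Bnip3 no longer passed the fold with CM-Veh, nor did Eno2 and Higd1a with CM-IL-1, each against RPMI. Without the most abundant row, Pgam1 no longer passed it with CM-Veh against RPMI, and Egln3 passed it between the media. With near-identical rows added, a choice made after seeing the data, Bnip3 no longer passed the fold in EGCs, nor did Bnip3 and Eno1 with CM-Veh against RPMI, which left 6 members lower in EGCs and 12 higher with CM-Veh. For Bnip3 the rows added include the antisense row Gm45507. Counts over all genes moved as well. In EGCs they were 571 higher and 2855 lower at a fold of 1.5, 136 and 1341 at a fold of 2, 281 and 1371 with a minimum mean of 10, 379 and 2316 on the scale of log2(mean + 1), and 936 and 2236 with the median set to 0. With CM-Veh against RPMI, 896 and 1213 became 333 and 337 at a fold of 2 and 539 and 456 with a minimum of 10. With CM-IL-1 against RPMI, 947 and 2508 became 451 and 943, 644 and 1103, and 1440 and 1618 with the median set to 0. Between the media, 304 and 932 became 91 and 171, 162 and 232, 206 and 473 on the scale of log2(mean + 1), and 506 and 538 with the median set to 0. No paired analysis was possible because the tables hold 1 mean per group, and for the same reason no library could be left out. Depth limits could not be given, and 6 members in each BMDM comparison had means under 10 in both groups.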
